A study of Mus musculus with 6 samples.

Results

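The 78 genes described here carry the names of mitochondrial ribosomal proteins, and 77 of them encode proteins of the mitochondrial ribosome, the particle that translates the few messenger RNAs made from mitochondrial DNA. The rule for membership was the name alone, taking every row of the deposited table whose symbol is Mrpl or Mrps followed by a number and at most 1 letter (78 of 52535 rows), and it used no measured value. A few proteins of this ribosome go by other names and are given at the end. The samples were mouse E14 embryonic stem cells, wild type before transfection and grown in serum-free N2B27 medium with LIF and 2 kinase inhibitors (2i). In the Npm1 siRNA group, 3 samples received an siRNA against Npm1, and in the control siRNA group 3 samples received a control siRNA. All 6 were collected on day 3 after transfection, and polyadenylated RNA was sequenced.

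The mitochondrial ribosome has a small subunit, which reads the messenger RNA, and a large subunit, which joins the amino acids and passes the new chain into the inner membrane. Its RNAs are encoded in mitochondrial DNA, while all of its proteins are encoded in the nucleus, made in the cytosol and imported. Its products are core subunits of the respiratory chain and of ATP synthase. Many of its proteins have a counterpart in bacterial ribosomes and others are found only in mitochondria. Npm1 encodes nucleophosmin, a nucleolar protein tied to the assembly of cytosolic ribosomes, which share no protein with the mitochondrial particle.

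Names and places do not always match in this family. Of the 78 proteins, 26 sit in the small subunit and 51 in the large subunit, counting Mrps30 and Mrps18a with the large subunit, where their proteins are found. Mrps36 encodes a subunit of the oxoglutarate dehydrogenase complex and is no longer counted as a ribosomal protein. By the same assignment, 16 small-subunit and 30 large-subunit members have a bacterial counterpart, and 10 and 21 are specific to mitochondria.

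The promoters shown are those of the 2 members that passed the test, Mrps10 and Mrpl40, and of 2 described members, Mrps18a and Mrps21. The latter 2 hold motifs found in a higher share of members than of all tested genes with a promoter. All promoters shown run 5′ to 3′ on the strand of the gene, from 250 bases before to 50 bases after the RefSeq start (GRCm38.p6). Capitals mark motif matches. The places are chr17:47368947-47369246 on the + strand for Mrps10, chr16:18876588-18876887 on the - strand for Mrpl40, chr17:46110754-46111053 on the + strand for Mrps18a and chr3:95871465-95871764 on the - strand for Mrps21.
Mrps10: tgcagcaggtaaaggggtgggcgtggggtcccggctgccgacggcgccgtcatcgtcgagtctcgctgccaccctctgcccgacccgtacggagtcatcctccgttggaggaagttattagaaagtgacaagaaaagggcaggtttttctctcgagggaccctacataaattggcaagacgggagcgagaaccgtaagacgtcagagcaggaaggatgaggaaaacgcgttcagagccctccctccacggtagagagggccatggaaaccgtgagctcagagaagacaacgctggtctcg
Mrpl40: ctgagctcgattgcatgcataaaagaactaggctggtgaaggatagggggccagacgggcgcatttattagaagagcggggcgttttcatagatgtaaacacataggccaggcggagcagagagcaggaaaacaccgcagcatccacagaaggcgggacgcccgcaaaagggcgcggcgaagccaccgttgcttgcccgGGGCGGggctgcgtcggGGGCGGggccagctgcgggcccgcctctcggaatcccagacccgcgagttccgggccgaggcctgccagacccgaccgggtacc
Mrps18a: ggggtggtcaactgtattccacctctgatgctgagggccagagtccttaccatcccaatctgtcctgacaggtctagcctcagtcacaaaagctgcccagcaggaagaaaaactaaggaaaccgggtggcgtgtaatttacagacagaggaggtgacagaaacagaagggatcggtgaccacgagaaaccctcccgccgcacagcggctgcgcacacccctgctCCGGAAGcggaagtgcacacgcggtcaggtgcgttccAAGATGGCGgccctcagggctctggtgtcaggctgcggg
Mrps21: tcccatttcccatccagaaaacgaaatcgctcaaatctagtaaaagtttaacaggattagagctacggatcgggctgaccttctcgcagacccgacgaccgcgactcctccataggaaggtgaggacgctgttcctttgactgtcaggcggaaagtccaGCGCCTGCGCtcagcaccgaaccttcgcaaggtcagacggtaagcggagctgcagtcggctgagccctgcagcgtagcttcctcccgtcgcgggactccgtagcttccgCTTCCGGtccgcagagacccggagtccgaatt

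In the Mrps21 promoter the capitals match the NRF1 motif (searched as GCGCA, any base, then GCGC) and the ETS motif (CCGGAAG). Both are here read on the other strand. In the Mrps18a promoter the capitals are an ETS match before the start and a YY1 match (AAGATGGCG) after it. The Mrpl40 promoter held 2 matches to the SP1 motif (GGGCGG) and none to the other motifs, and the Mrps10 promoter held none of the 5 motifs searched. NRF1, the ETS factor GABP and YY1 are known regulators of nuclear genes for mitochondrial proteins.

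RefSeq gave a promoter for 69 of the 78 members, and both strands were searched. The ETS motif was found for 26 of them (37.7%), against 20.0% of the 10226 genes that were tested here and have a promoter. NRF1 matches were found for 13 members (18.8%, against 11.5% of tested genes with a promoter) and YY1 matches for 8 (11.6%, against 3.58%). The SP1 motif was found for 34 members (49.3%), fewer than the 68.7% of tested genes but more than the 38.2% of all 27025 genes with a promoter, so its direction depends on the genes it is set against. The E-box CACGTG was found for 5 members (7.25%), against 11.9% of tested genes and 8.09% of all. For the ETS, NRF1 and YY1 motifs the share over all genes was 9.93%, 5.19% and 1.64%, below that of the members in each case. Matches of different motifs overlapped in 2 of the 75 member promoters searched. These are letter matches, which say nothing about binding in these cells.

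All fold changes and means that follow come from the authors' deposited table, which gives 1 row per gene pooled over the 6 libraries, so no value per sample or SD can be given. The mean normalized count is the read count scaled for depth and averaged over both groups. Standard errors and 95% intervals are those implied by each deposited fold change and its p. No label tells if the 3 samples of a group came from different cultures, so a p reflects only how these samples vary, which could be technical. The header does not give the direction of the ratio, and since Npm1 itself is negative it was taken as the Npm1 siRNA group over the control siRNA group (45.3% of control by the authors' deposited table, a log2 value of -1.14 with a 95% interval of -1.29 to -0.996). All 7 embryonic stem cell markers followed were abundant, with means between 3740 and 23793 in the authors' deposited table. Of 7 fibroblast markers, Dcn and Postn were listed at 0 and the highest mean was 20.6, with a summed level derived from that table of 33.0 after Npm1 siRNA and 51.5 after control siRNA.

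Most mitochondrial ribosomal protein genes changed little or not measurably. Of the 78 members, 77 had a mean normalized count of at least 10 and were tested. Falls were called for 2 of these and rises for none, and 75 missed the threshold of a Benjamini-Hochberg adjusted p under 0.05 over all 14284 tested genes. That is 2.60% of the tested members, against 4.30% called in either direction over all tested genes, 2.23% higher and 2.07% lower. By the p of the authors' deposited table before adjustment, 9 members (11.7%) were under 0.05, against 16.3% of all tested genes. Of the 9, 7 were lower (against 7.79% of all tested genes) and 2 were higher (against 8.47%) after Npm1 siRNA. The single untested member, Mrpl53, was listed at 0.

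The fold changes were small on both sides. Their median over the 77 members was a log2 value of -0.04, with a range from -0.42 to 0.29 in the authors' deposited table, against a median of 0.00192 over all tested genes. Negative values were found in 48 of the 77 members and in 49.6% of all tested genes. Among 7489 other genes of about the same mean they made up 46.7%. After removal of a fitted dependence on the length and GC content of the transcript, the members' median was -0.01 and 41 of the 77 were negative. The median over all 13906 genes treated so was -0.00431. The median size of the change without sign was 0.09 for the members, against 0.12 for the 7489 other genes of about the same mean and 0.15 for all tested genes.

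**Figure D1:**
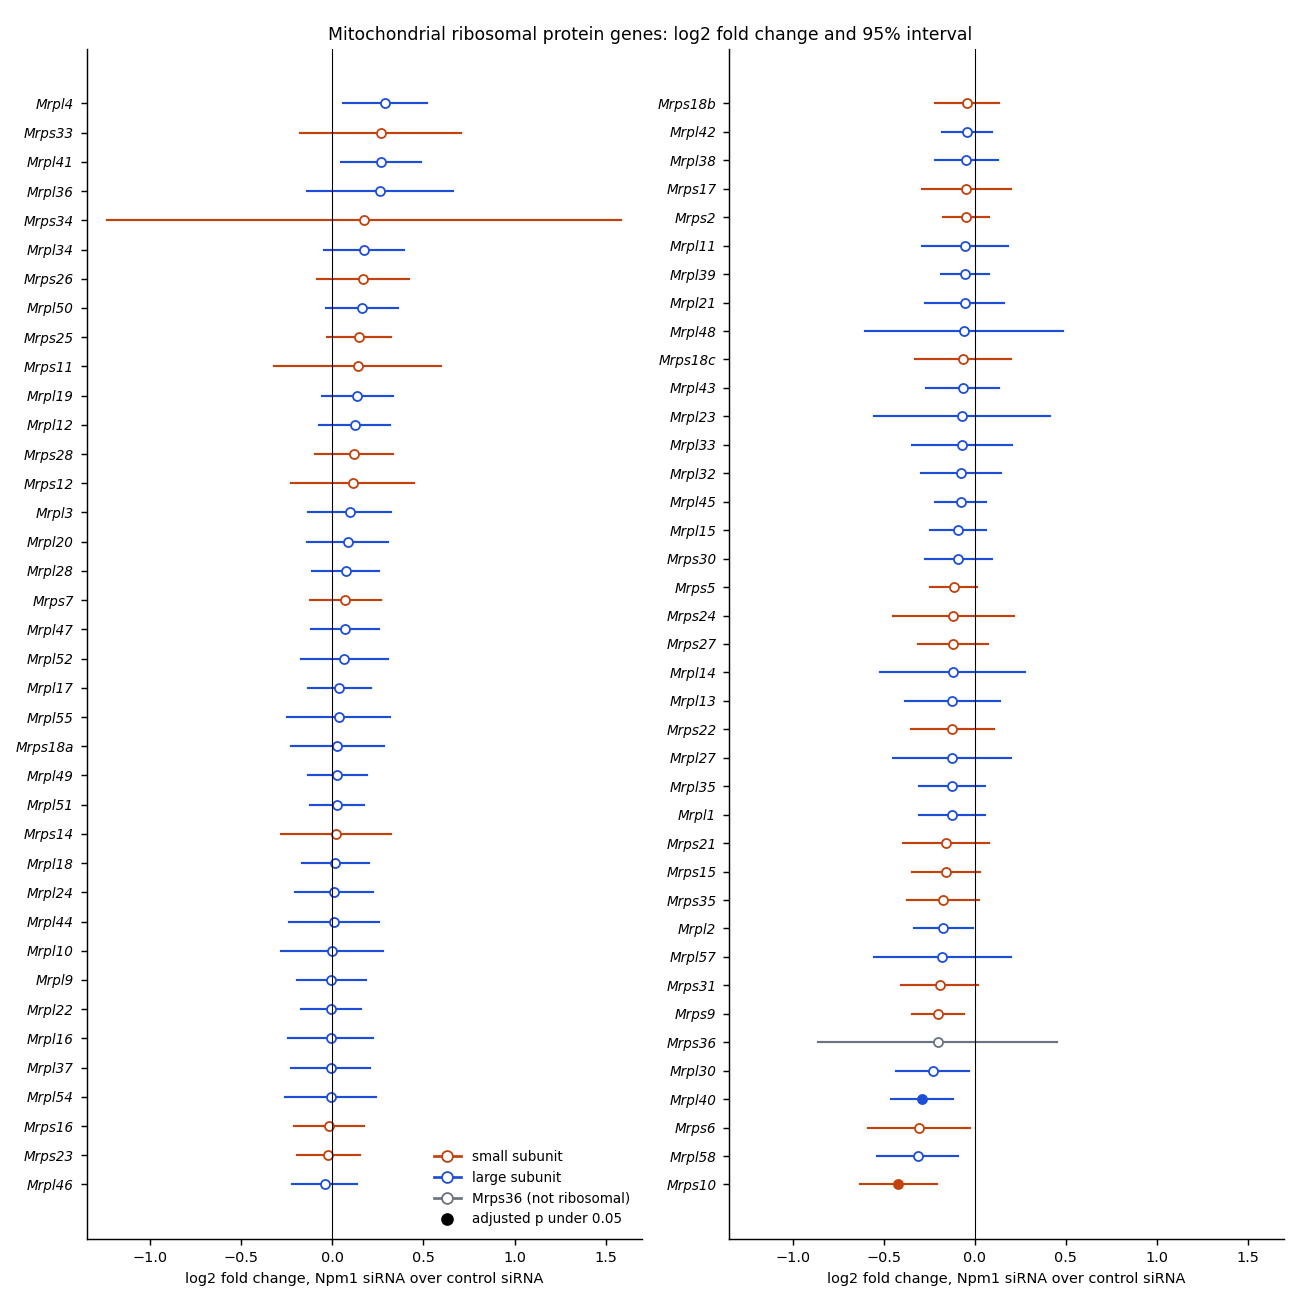
Log2 fold change (horizontal axis, Npm1 siRNA over control siRNA) of the 77 tested members, each on its own row with its implied 95% interval, colored by subunit. The filled points are Mrps10 and Mrpl40, the 2 members with an adjusted p under 0.05, and the other 75 points are open.

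The precision was enough to bound most members. For 69 of the 77 (89.6%) the whole 95% interval lay within a 1.5-fold change in either direction, against 57.9% of all tested genes and 83.1% of the other genes of about the same mean. For 24 members (31.2%) it lay within a 1.2-fold change, against 20.8% of the other genes of about the same mean. The median implied standard error was 0.11 on the log2 scale. Summed over the members, the level derived for each group from the authors' deposited table was 90576 normalized counts after Npm1 siRNA and 93414 after control siRNA, or 97.0% of control.

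**Figure D2:**
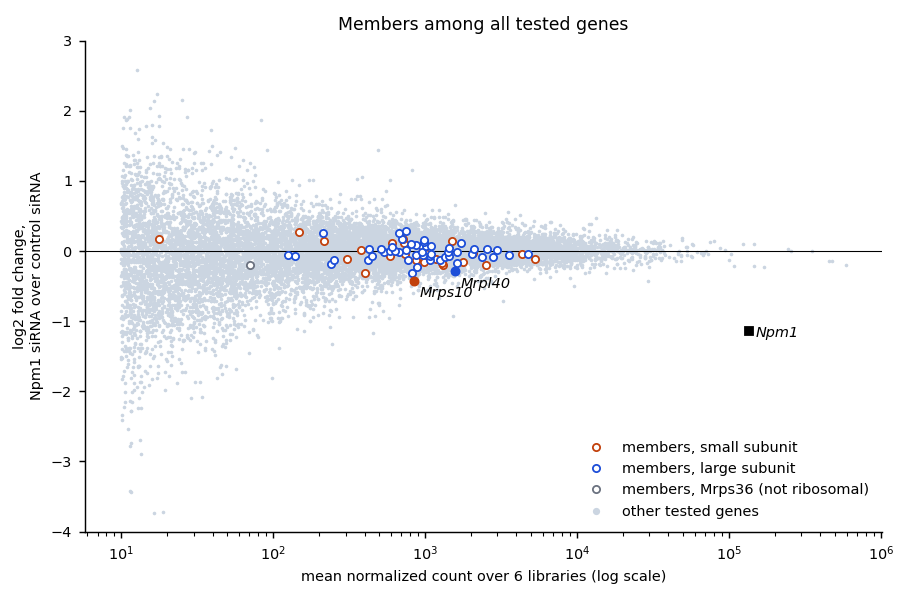
Log2 fold change (vertical axis) against the mean normalized count over the 6 libraries (log axis) for all 14284 tested genes, with the members in color and Npm1 as a square. The members lie between -0.42 and 0.29, inside the cloud of the other genes.

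The small subunit held the member with the lowest p. Mrps10, on chromosome 17 from 47368887 to 47381417 (GRCm38), encodes a protein of the head of the small subunit with a bacterial counterpart. Its derived level was 730 normalized counts after Npm1 siRNA and 977 after control siRNA. By the authors' deposited table it fell to 74.7% of control, a log2 value of -0.42 with a 95% interval from -0.63 to -0.21 (Benjamini-Hochberg adjusted p = 0.00612). Of the 100-base windows of its longest coding transcript, 136 of 1014 also occur in another annotated gene, so some of its reads may not be assigned uniquely. With Benjamini-Yekutieli adjustment its adjusted p was 0.0621.

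Of the other small-subunit proteins, Mrps9, also of the head, and Mrps6, which has a bacterial counterpart, had an unadjusted p under 0.05. Mrps9 had a derived level of 2333 normalized counts after Npm1 siRNA and 2680 after control siRNA (log2 -0.20 in the authors' deposited table, adjusted p = 0.0972). Mrps6 stood at 362 after Npm1 siRNA and 448 after control siRNA (log2 -0.31 in the authors' deposited table, 95% interval -0.59 to -0.02, adjusted p = 0.254). Neither passed the test. Mrps6 shares 207 of its 747 coding-transcript windows with other genes, among them Slc5a3, which lies at the same locus.

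Over the 26 small-subunit members, 1 fell and 25 were not called, at 4.30% called over all tested genes. Their median log2 value was -0.05, and 17 were negative. Those with a bacterial counterpart had a median of -0.06 (16 tested, 1 fell) and those specific to mitochondria -0.03 (10 tested, none called). Mrps33, a small protein of the head, had one of the 3 highest values of all members at 0.27, but its interval ran from -0.18 to 0.71 in the authors' deposited table. Mrps18b and Mrps18c, copies of one ancestral gene that both sit in the small subunit, were at -0.04 and -0.06, and the third copy, the large-subunit Mrps18a, was at 0.03 in the authors' deposited table. The intervals of all 3 included 0.

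The large subunit held the other member that passed. Mrpl40, on chromosome 16 from 18872018 to 18876862, encodes a mitochondria-specific protein of the central protuberance, the crown of the large subunit. Its derived level was 1423 normalized counts after Npm1 siRNA and 1737 after control siRNA. By the authors' deposited table it fell to 81.9% of control, a log2 value of -0.29 with a 95% interval from -0.46 to -0.12 (Benjamini-Hochberg adjusted p = 0.0292). The call was lost without a filter on low means (adjusted p = 0.0513) and with Benjamini-Yekutieli adjustment (adjusted p = 0.296). None of its exon bases are shared with another annotated gene.

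The other 7 genes listed here for the central protuberance did not pass. That is 1 of 8 called, at 4.30% called over all tested genes, and the list of 8 had a median log2 value of -0.04. Mrps30, one of the 7, was at -0.09 with an interval from -0.27 to 0.09 by the authors' deposited table. Mrpl18, whose bacterial counterpart binds the 5S ribosomal RNA, was at 0.02 in the authors' deposited table. Mrpl40 had the lowest value on this list, which does not include Mrpl58 (log2 -0.31 in the authors' deposited table).

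Of the large-subunit members with an unadjusted p under 0.05, the rest lay on both sides of 0. Mrpl58, a peptidyl-tRNA hydrolase built into the large subunit that can release stalled chains, had a derived level of 733 normalized counts after Npm1 siRNA and 912 after control siRNA (log2 -0.31 in the authors' deposited table, adjusted p = 0.0921). Mrpl30 was at -0.23 (adjusted p = 0.214) and Mrpl2, a protein of the core beside the catalytic center, at -0.17 (adjusted p = 0.258) in the authors' deposited table. On the positive side, Mrpl4, which lines the exit tunnel, stood at 829 after Npm1 siRNA and 679 after control siRNA (log2 0.29 in the authors' deposited table, 95% interval 0.06 to 0.52, adjusted p = 0.16). Mrpl41, a mitochondria-specific protein, stood at 740 after Npm1 siRNA and 616 after control siRNA (log2 0.26 in the authors' deposited table, adjusted p = 0.182). None of these 5 passed the test.

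The lists of the stalk and of the peptide exit of the large subunit held no called gene and none with an unadjusted p under 0.05. Among all tested genes 4.30% were called and 16.3% had such a p. The stalk, which recruits translation factors, had 4 tested members with log2 values from -0.05 to 0.12 in the authors' deposited table. The highest was Mrpl12, a stalk protein that also binds the mitochondrial RNA polymerase (0.12, 95% interval -0.07 to 0.32). The 7 proteins listed around the peptide exit (Mrpl17, Mrpl22, Mrpl23, Mrpl24, Mrpl44, Mrpl45 and Mrpl47; Mrpl4, which lines the tunnel leading there, is not on this list) lay between -0.08 and 0.07, and the intervals of 6 of them stayed within a 1.2-fold change. Over the 50 tested large-subunit members the median was -0.01, 1 fell and 49 were not called. Of 14 members whose human counterparts are mutated in combined oxidative phosphorylation deficiency, none passed and none had an unadjusted p under 0.05 (median 0.01). The shares over all tested genes were again 4.30% and 16.3%.

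Levels across the family spanned a wide range. The members added up to 91995 normalized counts, or 0.333% of the sum over all genes, against 4.80% for the 85 cytosolic ribosomal protein genes. A mean of at least 100 was reached by 75 members and one of at least 1000 by 33. Per kilobase of the longest annotated transcript, the median was 474 normalized counts per kilobase (438 for the small subunit and 508 for the large). The highest were Mrpl18 (2440), Mrps21 (2018), a small-subunit protein with a bacterial counterpart, and Mrpl22 (1970), a protein of the exit tunnel. Mrpl18 remained among the 3 highest per kilobase of the exon union and of the longest coding transcript, whereas Mrpl42, chosen after its values were seen, led by the coding transcript (7104, against 1444 by the longest transcript).

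**Figure D3:**
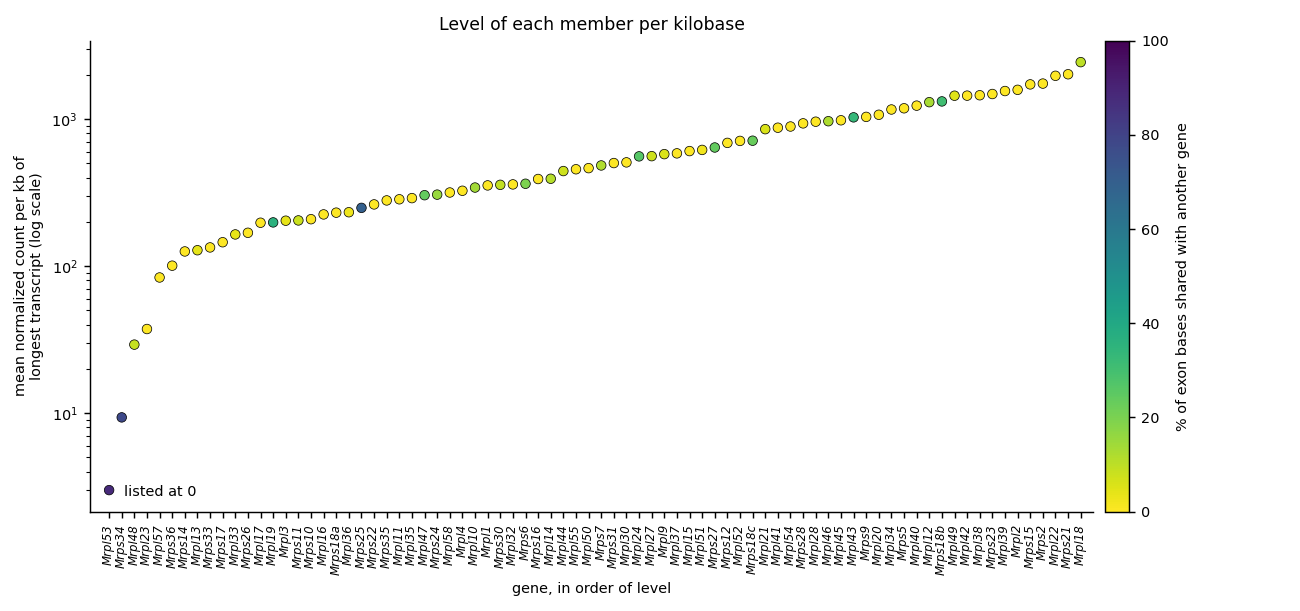
Mean normalized count per kilobase of the longest transcript (log axis) of the 78 members in order of level, colored by the percentage of exon bases shared with another annotated gene. Mrpl53 is listed at 0 and drawn at the bottom, next to Mrps34, and both share most of their exon bases.

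The lowest 3 per kilobase were the same genes by all 3 lengths. Mrpl53, a stalk protein on chromosome 6 from 83109040 to 83109939, was listed at 0. All 596 windows of its coding transcript also occur in Gm42688, a longer gene on the same strand that had a mean of 24.0 in the authors' deposited table. Mrps34, a mitochondria-specific protein of the small subunit on chromosome 17 from 24895116 to 24897502, had a mean of 17.7 and the widest interval of the family (log2 0.17, 95% interval -1.24 to 1.59, by the authors' deposited table). Its exons share 37.0% of their bases with Nme3 on the same strand, itself listed at 0, and 63.4% with Mapk8ip3 on the opposite strand (mean 1017 in the authors' deposited table). Mrpl48, of the central protuberance, had a mean of 125 and a log2 value of -0.06 with an interval from -0.60 to 0.48 by the authors' deposited table, and it shares 129 of 4186 windows with its pseudogene Mrpl48-ps.

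Shared sequence was common in the family and not only in its low genes. Exon bases shared with another annotated gene were found in 33 of the 78 members (42.3%), against 29.4% of 21586 protein-coding genes of the table. Those genes include 5401 listed at 0, whereas 1 member was. Of the 33 members, 8 shared bases with a gene on the same strand and the rest only with genes on the opposite strand. The library preparation was stranded, but whether strand was used in counting is not stated. At least 50% of exon bases were shared in 3 members (3.85%, against 2.49%). The third of these, Mrps25, chosen after its values were seen, shared 69.8% with Nr2c2 on the opposite strand and had a mean of 1513 in the authors' deposited table. Mrpl23, also chosen after its values were seen, had 408 of its 637 windows in the pseudogene Mrpl23-ps1 and a mean of 139 in the authors' deposited table. Mrps36, with 115 of 602 windows in its pseudogenes, had a mean of 70.6 and, by the authors' deposited table, a log2 value of -0.20 with an interval from -0.86 to 0.45. The part of shared sequence in these low levels was not tested, and how the authors counted reads over shared bases is not given in the sources used here.

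Many members lie head to head with another gene. For 18 of the 78 (23.1%) a protein-coding gene on the other strand starts up to 1000 bases upstream, against 10.2% of the tested protein-coding genes. Pairs that overlap at their starts, such as Mrpl46 and Mrps11, were not counted. All 18 neighbours were tested and none passed, at 4.30% called over all tested genes. An unadjusted p under 0.05 was found for 2 of the 18, against 16.3% of all tested genes. Hira, a histone chaperone whose start lies 175 bases from that of Mrpl40, was at a log2 value of -0.02 (adjusted p = 0.976), while Mrpl40 was at -0.29 in the authors' deposited table. Mitd1, 66 bases from Mrpl30, was at -0.14 and Mrpl30 at -0.23 by the authors' deposited table. Pnpla7, 935 bases from Mrpl41, was at -0.12 and Mrpl41 at 0.26 in the authors' deposited table. Klc4, 207 bases from Mrpl2, was at 0.25 and Mrpl2 at -0.17 in the authors' deposited table. Member and neighbour had the same sign in 11 of the 18 pairs. Whether a member and its neighbour differ was not tested.

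**Figure D4:**
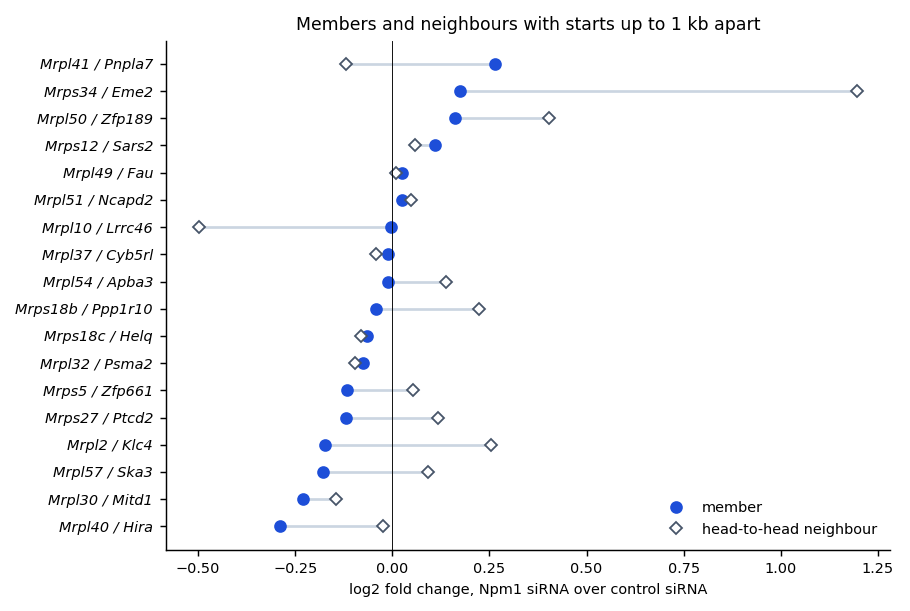
Log2 fold change (Npm1 siRNA over control siRNA) of the 18 members with a head-to-head neighbour (filled) and of that neighbour (open), 1 pair per row. Mrpl40 lies at -0.29 and its neighbour Hira at -0.02, and the widest gaps are to Eme2 and Lrrc46, whose means were 13.4 and 13.8.

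The remaining parts of the mitochondrial ribosome gave no calls. Of 5 proteins known by other names (Dap3, Chchd1, Aurkaip1, Ptcd3 and Gadd45gip1) none passed, with a median log2 value of -0.10. Dap3, a GTP-binding protein of the small subunit, was at -0.15 (adjusted p = 0.515) and Aurkaip1, also of the small subunit, at -0.14 (adjusted p = 0.667) in the authors' deposited table. None of the 5 had an unadjusted p under 0.05. Both ribosomal RNAs, mt-Rnr1 and mt-Rnr2, chosen after their values were seen, were at 0.23 (adjusted p = 0.113) and 0.17 (adjusted p = 0.241) in the authors' deposited table, in libraries selected for poly(A) tails. Of 9 mitochondrially encoded genes with reads, 1 fell, mt-Nd2, a subunit of respiratory complex I (log2 -0.23 in the authors' deposited table, adjusted p = 0.0366), and 8 did not pass. That is 1 of 9, at 4.30% called over all tested genes. The 9 had a lower median implied standard error (0.0749 on the log2 scale) than all tested genes (0.154), so a smaller change gives a low p. At an unadjusted p under 0.05 there were 6 of the 9 (66.7%, against 16.3% of all tested genes), 3 lower and 3 higher after Npm1 siRNA. Beside mt-Nd2 and both ribosomal RNAs these were mt-Nd4 (-0.21, adjusted p = 0.0827) and mt-Nd6 (0.13, adjusted p = 0.22), both of complex I, and mt-Cytb of complex III (-0.14, adjusted p = 0.306), by the authors' deposited table and chosen after their values were seen.

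Factors that build and run the mitochondrial ribosome were likewise not called. Among all tested genes 4.30% were called and 16.3% had an unadjusted p under 0.05. None of 25 assembly factors passed (median log2 value 0.00968, 1 with an unadjusted p under 0.05), and the lowest p values were those of the rRNA methyltransferase Tfb1m (-0.37, adjusted p = 0.168) and the RNA-binding Fastkd2 (-0.20, adjusted p = 0.346) in the authors' deposited table. None of 13 tested translation factors passed (median -0.02, 2 with an unadjusted p under 0.05), with Gfm2, a factor that recycles ribosomes, at -0.23 (adjusted p = 0.0627) and the initiation factor Mtif2 at -0.20 (adjusted p = 0.226) by the authors' deposited table. None of the 16 mitochondrial tRNA synthetases described here passed (median 0.04, 1 with an unadjusted p under 0.05), with Rars2 at -0.23 (adjusted p = 0.0935) and Wars2 at -0.28 (adjusted p = 0.396) by the authors' deposited table.

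Regulators and the mitochondrial transcription machinery held no called gene, at 4.30% called over all tested genes and 16.3% with an unadjusted p under 0.05. None of 12 genes of mitochondrial transcription and DNA maintenance passed (median -0.01, 3 with an unadjusted p under 0.05), with Hsd17b10, a subunit of mitochondrial RNase P, at -0.25 (adjusted p = 0.0682) and the mitochondrial RNA polymerase Polrmt at 0.35 (adjusted p = 0.0705) in the authors' deposited table. None of 10 tested nuclear regulators passed (median 0.03, 1 with an unadjusted p under 0.05), with the coactivator Pprc1 at 0.20 (adjusted p = 0.0651) and Mycn at -0.09 (adjusted p = 0.681) in the authors' deposited table. Of the 85 cytosolic ribosomal protein genes none passed either (median -0.00783), with Rpl23a at 0.50 (adjusted p = 0.0505) and Rps24 at -0.14 (adjusted p = 0.139) in the authors' deposited table. At an unadjusted p under 0.05 there were 11 of the 85 (12.9%, against 16.3% of all tested genes).

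**Figure D5:**
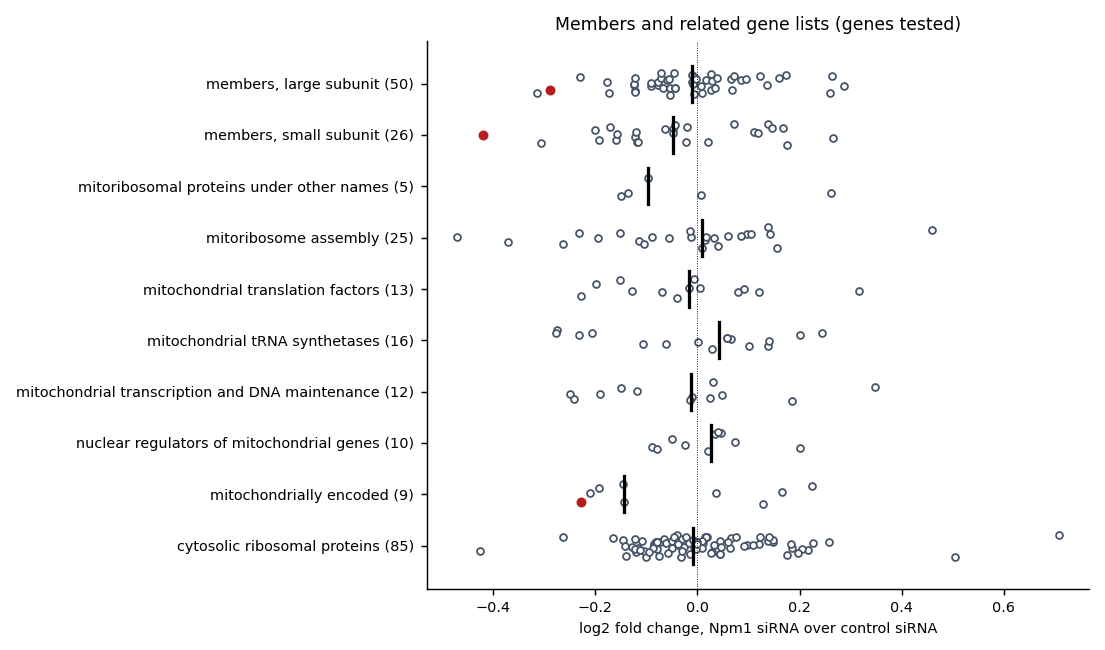
Log2 fold change of every tested gene (points) in the members, by subunit, and in 8 related lists, with the number tested in brackets and the median as a bar. The filled points are the genes with an adjusted p under 0.05: Mrpl40, Mrps10 and mt-Nd2.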

How the data were processed

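Polyadenylated RNA from 6 samples was sequenced from a single end after stranded library preparation, per the labels' protocols. The submitters' processing notes list FastQC, Trimmomatic 0.36, STAR, DESeq2 and the build GRCm38 (mm10). How reads were counted, whether strand was used, the annotation and the model settings are not stated there. The deposited table holds a mean signal (normalized count over all libraries), a log2 fold change and an unadjusted p-value per gene, per the file headers, and 27423 of 52535 rows have a mean of 0. The depth per library is unknown.

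Benjamini-Hochberg adjustment of the authors' p-values covered the 14284 genes whose mean reached 10, and a gene was called under 0.05. Standard errors are the fold change over the normal quantile of its p. Levels per group were derived from mean and fold change. Groups came from the sample titles. Gene models were GENCODE M21 (GRCm38), matched by unique symbol for 97.4% of tested genes and all members. Window sharing used 100-base exact matches among annotated transcripts. The calculations ran in Python 3.11.15 with scipy 1.17.1 and were tested on simulated data.

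The family was picked, and the lists were drawn up, with earlier results of these data known, although the name rule itself uses no value. Named were members with an unadjusted p under 0.05, the 3 at each end of fold change and of level per kilobase, the Mrps18 copies, Mrps30, Mrps36 and Mrpl12, and called genes or the 2 of lowest p in each related list. Alternatives were the filter, the centring, a length and GC trend, the adjustment and the length used. A gene of a related list is not reported here.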

Additional observations from a re-analysis of the deposited data

Results flagged for a closer look

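Signal appeared in rows of the table outside the family as chosen here. Of 5 pseudogene rows of the family, 3 had reads and 2 were listed at 0. Mrpl48-ps had a mean of 106 normalized counts in the authors' deposited table, beside 125 for Mrpl48, with log2 values of 0.09 for the pseudogene and -0.06 for the gene. Mrpl23-ps1 had a mean of 3.47 and Mrps36-ps1 a mean of 2.35 in the authors' deposited table. Each lies above a mean of 0.5, which 3 reads over 6 libraries would give. How reads were divided between each gene and its copy was not tested.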

How the results depend on the processing

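Over the 77 tested members, 2 were called. The count was 1 without a filter on low means, where Mrps10 kept its call and 466 of all 25112 genes were called. With Benjamini-Yekutieli adjustment the count of members was 0. Beside that 0, 9 members had an unadjusted p under 0.05, and calls over all genes fell to 230, against 614. Both Mrps10 and Mrpl40 kept their calls with a filter at a mean of 50, with recentring on the median of all genes, and with the length and GC trend subtracted (adjusted p = 0.00941 and 0.044). That trend moved no member by over 0.0747 on the log2 scale and changed the sign of 7. The 3 highest and 3 lowest members per kilobase shared 5 of 6 genes with the order by exon union and 4 of 6 with the order by coding transcript, which was added after seeing the data. No paired analysis was possible because the table holds no values per library, and leaving out replicates was not run for the same reason. The 2 tested members with the lowest means, Mrps34 and Mrps36, had the widest intervals, with implied standard errors of 0.72 and 0.34 on the log2 scale.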

Other observations

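Of the 13 mitochondrially encoded messenger RNAs, 6 were listed at 0 in the authors' deposited table: mt-Atp6, mt-Atp8, mt-Co2, mt-Co3, mt-Nd3 and mt-Nd4l. For 5 of these, between 97.6% and 99.9% of the 100-base windows of the transcript also occur in an annotated nuclear copy, and for mt-Atp8 none do. The 7 with reads had 0% to 60.8% of their windows in another gene and means of at least 74767. These genes are the templates of the mitochondrial ribosome, so its messenger RNAs are only partly covered by the table.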
